A study of Mus musculus with 9 samples.

Results

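Metastases of a mouse prostate cancer model that had seeded at a distal site were compared with those in the epididymal fat, the proximal site. All 3 libraries labelled distal metastases and all 3 labelled proximal metastases were used, which is 6 of the 9 libraries in the series. The other 3, from primary tumours, entered only the alternatives and a few levels given for reference. Every group came from C57BL/6 mice of about 9 to 10 months carrying Ctnnb1pc(ex3)delta/+ among their engineered changes, a deletion of exon 3 from 1 allele of the beta-catenin gene. Both sites therefore share all engineered changes, and no group without them was used. The Cre driver behind the label "pc" is not given in the sources used here. RNA was extracted from frozen tissue, so each library held tumour cells together with whatever host tissue was collected with them. For the distal group, the tissue label gives the diaphragm but the growth protocol gives the lung, and neither organ is assumed here. The samples are described as matched from 3 animals, but which libraries share an animal is not stated.

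Beta-catenin is the transcriptional arm of canonical Wnt signalling. Exon 3 of its gene encodes the residues whose phosphorylation marks the protein for destruction, and a protein without them accumulates, enters the nucleus and turns on targets such as Axin2, Nkd1 and Notum. A tumour that settles in a new organ carries this programme with it, and takes up stroma, vessels and blood from that organ. Bulk RNA sequencing reads both at once, and in such data fewer cells of a type and less RNA per cell cannot be told apart.

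No gene passed the test between the metastatic sites. Of 17240 genes tested, edgeR's quasi-likelihood test called 0 higher and 0 lower in distal metastases at an adjusted p below 0.05 (0% in each direction), and the lowest adjusted p was 0.999. At an unadjusted p below 0.05 it listed 651 genes (3.78%), of which 431 were higher (2.5%) and 220 lower (1.28%). The median log2 fold change, distal over proximal, was -0.01 and the median size of a change was 0.10. For 12943 genes (75.1%) the 95% interval of the fold change lay within -1 to 1 on the log2 scale. Limma-voom also called 0 genes, with 462 at an unadjusted p below 0.05, whereas DESeq2 called 159 of 18242 genes higher (0.872%) and 25 lower (0.137%). The DESeq2 calls are described further on with the libraries that held their highest values. All 3 distal libraries lay above all 3 proximal ones for 669 tested genes (3.88%) and below them for 594 (3.45%).

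Total counts ranged from 29094545 to 40408723, so a gene at 1 CPM (its count scaled by the library total) held 29.1 to 40.4 counts. A count of 0 allows up to 0.0742 to 0.103 CPM (3 counts), which covers counting error only. Across genes, the correlation of log2 CPM between a proximal and a distal library lay between 0.976 and 0.992, a range that took in the within-site values of 0.985 to 0.992 and 0.980 to 0.989. Genes are not independent replicates. Proximal 2 and distal 3 stood apart through transcripts of other tissues. A gene counted as high in a single library when it reached 10 CPM there and 4 times its level in each of the other 5, a definition chosen after the data were seen. Distal 3 had 72 such genes holding 0.738% of its counts, proximal 2 had 28 holding 0.152% and distal 1 had 9 holding 0.0284%. Proximal 1, proximal 3 and distal 2 had none.

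**Figure D1:**
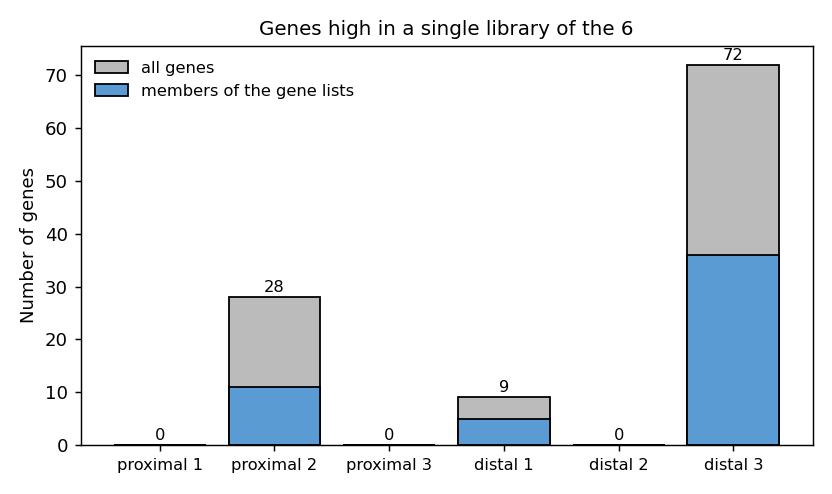
Number of genes at 10 CPM or more in 1 library and at least 4 times their level in each of the other 5, by library (horizontal axis). The grey bar is all such genes and the blue part those in the gene lists. Distal 3 holds 72, proximal 2 holds 28, distal 1 holds 9 and the other libraries 0.

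Genes of the tumour itself come first. The beta-catenin gene Ctnnb1 (ENSMUSG00000006932) lies on chromosome 9 from 120929216 to 120960507 of GRCm38 and shares part of its body with the opposite-strand gene Ulk4. Its level was 4508, 3702 and 5090 CPM in proximal 1, 2 and 3 and 4312, 4550 and 3660 CPM in distal 1, 2 and 3. The groups overlapped, with a log2 fold change of -0.09 (SE 0.14, 95% interval -0.44 to 0.26, edgeR adjusted p = 0.999). Because all libraries carry the same genotype, this level checks no label. Axin2, a negative feedback inhibitor and a standard target of the pathway, stood at 936, 901 and 852 CPM in the proximal and 837, 880 and 784 CPM in the distal libraries (log2 fold change -0.10, 95% interval -0.29 to 0.08). Nkd1, which restrains Wnt signalling through Dishevelled, stood at 1919, 1920 and 1896 CPM against 1831, 1905 and 1673 CPM (-0.08, 95% interval -0.27 to 0.10). For these 3 genes, the intervals lay within -0.44 and 0.26.

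Wif1, a secreted inhibitor that binds Wnt ligands, was the panel's Wnt gene without overlap between sites: 5570, 5443 and 5433 CPM in proximal and 5251, 5033 and 4851 CPM in distal metastases. Its log2 fold change was -0.12 (95% interval -0.30 to 0.06). Lgr5, a receptor for R-spondins and a stem cell marker, overlapped widely (222, 170 and 153 against 187, 183 and 150 CPM). Over the list of Wnt/beta-catenin targets, 21 of 25 members were tested, 6 with a positive and 15 with a negative fold change, and the median was -0.07 beside -0.01 over all genes. Positive fold changes made up 47.5% of all genes. No member was called, and log2 fold changes ran from -0.29 to 0.75. At an unadjusted edgeR p below 0.05, 2 members were higher and 0 lower, against 2.5% and 1.28% of all tested genes. With distal higher 2 of 25 members separated the sites, and with distal lower 1, against 3.88% and 3.45% of all tested genes. The summed level of the list was 18300, 17500 and 16900 CPM in the proximal and 17000, 17100 and 15900 CPM in the distal libraries, and proximal 3 lay below distal 2.

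Most identity genes of the tumour given here overlapped between sites. The luminal keratin gene Krt8 stood at 982, 530 and 854 CPM in the proximal and 809, 929 and 806 CPM in the distal libraries, with proximal 2 the lowest of the 6. Cdh1, which encodes the junction protein E-cadherin, averaged 278 ± 67.2 CPM in proximal and 278 ± 4.41 CPM in distal metastases (SD, n = 3 each; log2 fold change -0.00, 95% interval -0.41 to 0.40). Hoxb13, a prostate lineage factor named after its values were seen, stood at 5.06, 4.22 and 3.47 CPM against 4.91, 3.09 and 4.29 CPM. Krt5, a basal keratin, was under 3 CPM in all 6 libraries. The secretory product Pbsn, also named after its values were seen, stood at 0.91, 0.208 and 0.0754 CPM in proximal libraries and did not pass 0.0256 CPM in the distal ones. The sites thus did not overlap for Pbsn, though a count of 0 in proximal 3 still allows 0.0748 CPM. Nor did they for Azgp1 of the luminal list, at 0.107, 0.0261 and 0.0251 against 4.15, 0.632 and 0.206 CPM. DESeq2 called Azgp1 higher (adjusted p = 0.0119), and edgeR did not test it. Azgp1 kept the order of the liver transcript Fga over distal 1, 2 and 3 (32.4, 6.35 and 1.44 CPM). Whether its transcripts came from tumour cells was not tested.

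Cell division genes overlapped as well. Mki67, a marker of cycling cells, stood at 260, 256 and 147 CPM in proximal and 179, 257 and 261 CPM in distal libraries, where proximal 3 and distal 1 were the low ones (log2 fold change 0.07, 95% interval -0.54 to 0.68). Of 28 members of the cell division list, 27 had a positive fold change, with a median of 0.16 and a range from -0.03 to 0.24. None was called and none separated the sites. The list summed to 1870, 1890 and 1260 CPM in proximal and 1560, 1970 and 1980 CPM in distal libraries, with proximal 3 the lowest. The sign of the Mki67 difference was negative without proximal 3 (-0.15), without distal 2 (-0.00) and without distal 3 (-0.02).

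**Figure D2:**
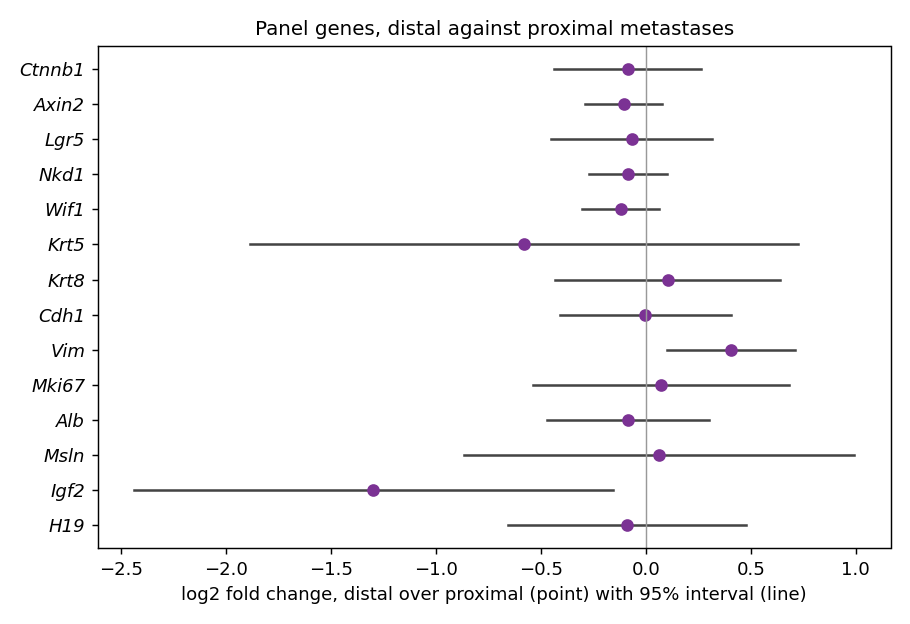
Log2 fold change, distal over proximal (horizontal axis, points), with its 95% interval (lines) for 14 genes of a panel. The intervals cross 0 except those of Vim (0.10 to 0.71) and Igf2 (-2.44 to -0.15), and none of the genes passed the test over all genes.

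Vim and Igf2 were the exceptions in the plot of panel genes. Vim, the intermediate filament gene of mesenchymal cells, stood at 1766, 1534 and 1338 CPM in proximal and 2164, 1835 and 2148 CPM in distal libraries. Each distal library was above each proximal one (log2 fold change 0.41, SE 0.13, unadjusted p = 0.0163, edgeR adjusted p = 0.999, in 3 against 3 libraries). Within the mesenchymal transition list 15 of 18 members had a positive fold change, and the median was 0.11. With distal higher, 3 members separated the sites, against 3.88% of all tested genes, Vim and Itga5 among them. The transcription factor genes of that list did not: Zeb1, at 22.8, 28.7 and 22.6 against 31.7, 24.8 and 24.1 CPM, and Snai2, at 25.8, 19.3 and 22.3 against 28.7, 21.9 and 17 CPM. Vim is made by fibroblasts, endothelium and leukocytes too. Of those lists, fibroblast and collagen had 8 of 18 members positive (median -0.04), endothelium 12 of 16 (0.16) and macrophage 12 of 17 (0.25), and their part in the Vim difference was not tested. Igf2, a fetal growth factor gene, stood at 5.09, 11.6 and 19.5 CPM in proximal against 6.14, 4.13 and 4.43 CPM in distal libraries. Proximal 1 was within reach of the distal values (log2 fold change -1.30, SE 0.47, unadjusted p = 0.0317, edgeR adjusted p = 0.999), and without proximal 3 the change was -0.77. H19, the noncoding RNA gene next to Igf2, overlapped at 37.8, 64.3 and 69.3 against 61.9, 52.1 and 47.1 CPM.

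Among genes at 10 CPM or more whose sites did not overlap, 6 with the lowest p were taken in each direction. The 6 that were lower in distal metastases held moderate differences. Choosing by low p without overlap favours genes that vary little within a site. Parm1, a mucin-like membrane protein gene first known as androgen-regulated in prostate (ENSMUSG00000034981, chromosome 5, 91517615 to 91626894), stood at 351, 337 and 323 CPM in proximal and 258, 255 and 259 CPM in distal libraries. The distal values were nearly equal (log2 fold change -0.39, SE 0.06, 95% interval -0.53 to -0.25, edgeR adjusted p = 0.999, DESeq2 adjusted p = 1.74e-07). H2-Q1, a nonclassical class I histocompatibility gene (chromosome 17, 35320405 to 35325099), stood at 36, 46.3 and 56.1 CPM in proximal and 23.2, 22.8 and 17.6 CPM in distal libraries (log2 fold change -1.12, SE 0.19, DESeq2 adjusted p = 4.19e-05). The H2-Q genes are near-identical copies, and how reads were split between them is not known. H2-Q4 and H2-Q7 overlapped between sites, as did B2m (90.7, 143 and 98.5 CPM against 110, 96.7 and 201 CPM), the shared light chain of class I molecules.

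Clstn2, a calsyntenin gene of synaptic membranes, stood at 22, 19.9 and 19.1 CPM against 14.7, 12.3 and 11.2 CPM (log2 fold change -0.67, SE 0.12). Ghr, the growth hormone receptor gene, stood at 39.9, 41.5 and 35.3 CPM against 30.2, 27.4 and 29.5 CPM (-0.42, SE 0.08). The nuclear noncoding RNA Malat1 stood at 159, 176 and 129 CPM against 109, 109 and 95.7 CPM (-0.56, SE 0.13). Arsb, which encodes a lysosomal sulfatase, stood at 25.3, 25.5 and 26.2 CPM against 22.1, 20.3 and 20.6 CPM (-0.29, SE 0.07). DESeq2 called each of the 6 except Arsb (adjusted p = 0.11), and edgeR none. Their signs held in every alternative, and without any 1 library Parm1 stayed between -0.42 and -0.36 and H2-Q1 between -1.27 and -0.96.

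Nkx2-3, a homeobox gene of gut and spleen mesenchyme, had the lowest p of all 17240 genes but lies under 10 CPM and is named here after its values were seen. It stood at 1.98, 3.96 and 2.29 CPM in proximal and 0.205, 0.316 and 0.137 CPM in distal libraries (log2 fold change -3.60, SE 0.44, unadjusted p = 0.00012, edgeR adjusted p = 0.999, DESeq2 adjusted p = 1.51e-07; 3 against 3 libraries). The sites did not overlap.

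Of the 6 genes that were higher in distal metastases, Cd244a and Klf2 held even differences and Gpr22 varied more within each site. The other 3 followed a gradient across the distal libraries. Cd244a, a signalling lymphocyte receptor gene (ENSMUSG00000004709, chromosome 1, 171559193 to 171609746, overlapping its relative Ly9 on the opposite strand), stood at 37.5, 35.8 and 36.7 CPM in proximal and 48.6, 47.8 and 50.1 CPM in distal libraries. Values within a site were close together (log2 fold change 0.41, SE 0.06, edgeR adjusted p = 0.999, DESeq2 adjusted p = 1.74e-05). This receptor is known from natural killer cells and other leukocytes, and the T and cytotoxic lymphocyte list summed to 4.47, 27.8 and 3.47 CPM in proximal and 3.07, 6.93 and 7.76 CPM in distal libraries. Gpr22, an orphan receptor gene known from heart and brain (chromosome 12, 31706867 to 31713947, overlapping Cog5 on the opposite strand), stood at 9.69, 6.04 and 3.09 CPM in proximal and 24.2, 40.4 and 28.6 CPM in distal libraries (log2 fold change 2.31, SE 0.43, DESeq2 adjusted p = 7.92e-06). Klf2, a flow-responsive transcription factor of endothelium, stood at 28.2, 27.3 and 27.7 CPM against 37.6, 32.8 and 36.4 CPM (0.36, SE 0.07, DESeq2 adjusted p = 0.0263). Emcn was the only one of 16 endothelial list members that separated the sites, at 10, 10 and 9.87 against 11.5, 13.6 and 16.8 CPM. Over all tested genes, 3.88% separated them with distal higher.

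**Figure D3:**
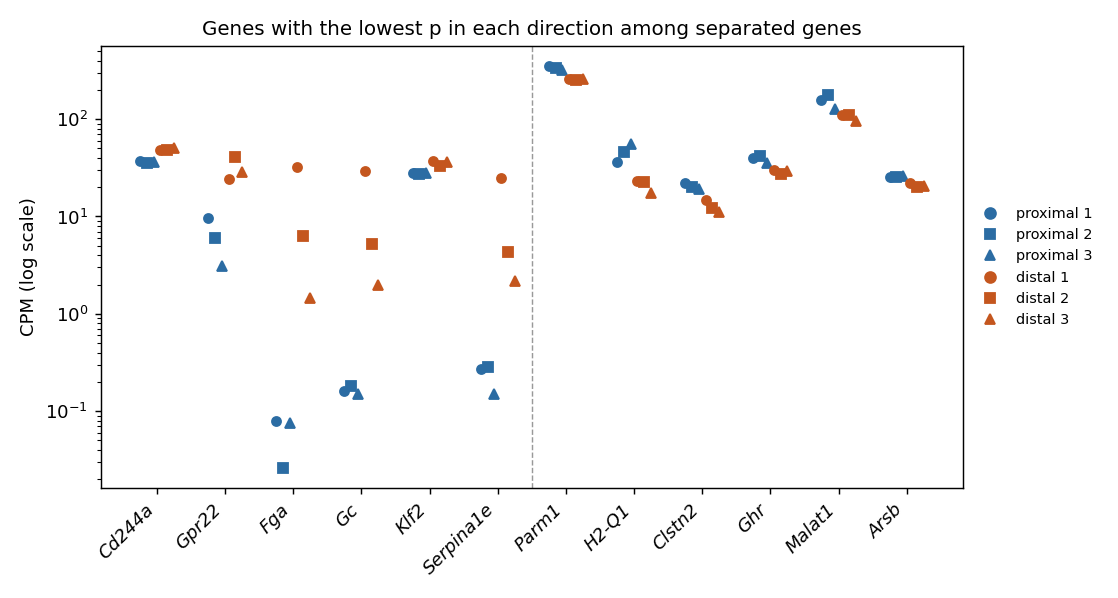
CPM (log scale) in each of the 6 libraries for the 6 genes with the lowest p in each direction among genes that separate the sites, distal higher on the left of the dashed line and lower on the right. Parm1 and Cd244a separate by narrow, even steps, whereas Fga, Gc and Serpina1e run from distal 1 down to distal 3.

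The other 3 were liver transcripts: Fga, the fibrinogen alpha chain gene, Gc, the vitamin D binding protein gene, and Serpina1e, an alpha-1-antitrypsin gene. Fga (chromosome 3, 83026076 to 83033627) stood at 0.08, 0.026 and 0.075 CPM in proximal and 32.4, 6.35 and 1.44 CPM in distal libraries. Gc stood at 0.161, 0.182 and 0.151 CPM against 29.1, 5.28 and 1.99 CPM, and Serpina1e, one of several near-identical copies, at 0.268, 0.287 and 0.151 CPM against 24.8, 4.35 and 2.16 CPM. Distal 1 was highest for each, and distal 3 lowest of its group yet above every proximal library. The log2 fold changes were 7.72 (SE 1.47), 6.18 (SE 1.19) and 5.46 (SE 1.09), with an edgeR adjusted p of 0.999 each. Without distal 1 the fold change of Fga was 5.93, of Gc 4.44 (edgeR adjusted p = 0.0471) and of Serpina1e 3.78.

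The hepatocyte list put these genes in context. In distal 1 all 18 members reached 1 CPM, in distal 2 it was 16 and in distal 3 it was 12, against 8, 11 and 7 in proximal 1, 2 and 3. The fibrinogen genes Fgb (28.3, 5.25 and 1.2 CPM) and Fgg (20.9, 4.33 and 1.34 CPM) kept the order distal 1, distal 2, distal 3, and neither passed 0.126 CPM in a proximal library. Hpx, the haem scavenger hemopexin, followed them at 53.6, 9.19 and 2.75 CPM against 0.375, 0.469 and 0.703 CPM. Apoa1 and Apob, lipoprotein genes that the intestine expresses too, were also present in proximal 2, at 21 and 12.1 CPM. Trf, the iron carrier transferrin, overlapped at 37.6, 54.4 and 50 against 84.1, 27.4 and 62 CPM. Cyp2e1 and Hp overlapped too and had negative fold changes (-1.43 and -0.52 on the log2 scale). Cyp2e1 stood at 19, 48 and 20 against 5.96, 3.43 and 23.1 CPM, and Hp at 28, 94.5 and 28.3 against 32.1, 10.9 and 62.7 CPM. Of 17 tested members 13 had a positive fold change. Of 18 members 8 separated the sites, all with distal higher, against 3.88% of all tested genes. Serpina1c, among the 8, was not tested by edgeR. DESeq2 called 6 higher, against 0.872% of its genes.

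Alb, the albumin gene and the best-known hepatocyte product, went its own way. It stood at 7761, 7625 and 5371 CPM in proximal and 6988, 5952 and 6609 CPM in distal libraries (log2 fold change -0.09, 95% interval -0.47 to 0.30). Proximal 3, where Fga, Fgb and Fgg were at 0.126 CPM or less, still held 5371 CPM of it. The primary tumours held 4030, 114 and 650 CPM, on a scale set over 9 libraries.

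The windows upstream of Fga and Fgb are shown because these neighbours on chromosome 3 kept the same order over the distal libraries and hold the letters searched. Each line gives the 250 bases before the RefSeq start on GRCm38.p6, 5′ to 3′ on the gene's strand, with the HNF1 half-site in capitals. The letters searched were GTTAAT on both strands, and the match reads ATTAAC in both windows. They occurred in 4 of the 13 hepatocyte members with an entry (30.8%) and in 7.5% of 27025 genes. The 4 were Alb, Fga, Fgb and Serpina1c. Alb did not keep that order over the distal libraries, and Fgg, which did, was not among the 4. A match is a description of the letters and not of a bound site.
Fga, plus strand, chr3:83025903-83026152: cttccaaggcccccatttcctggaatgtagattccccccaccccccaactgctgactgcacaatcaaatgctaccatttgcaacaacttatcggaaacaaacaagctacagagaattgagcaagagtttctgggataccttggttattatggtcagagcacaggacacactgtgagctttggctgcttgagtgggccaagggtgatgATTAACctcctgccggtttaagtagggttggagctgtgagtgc
Fgb, minus strand, chr3:83049864-83050113: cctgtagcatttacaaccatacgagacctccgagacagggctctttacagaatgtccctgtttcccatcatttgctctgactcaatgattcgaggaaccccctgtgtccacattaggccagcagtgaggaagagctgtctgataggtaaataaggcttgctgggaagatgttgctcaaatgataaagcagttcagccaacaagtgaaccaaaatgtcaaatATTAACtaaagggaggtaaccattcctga

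Skeletal muscle transcripts divided the distal libraries. Acta1, skeletal muscle actin (ENSMUSG00000031972, chromosome 8, 123891769 to 123894751), stood at 0.883, 0.677 and 0.628 CPM in proximal 1, 2 and 3 and at 3.51, 313 and 420 CPM in distal 1, 2 and 3. Distal 1 was above the proximal libraries but far below distal 2 and distal 3 (log2 fold change 8.39, SE 1.80, edgeR adjusted p = 0.999, DESeq2 adjusted p = 2.51e-06). Atp2a1, the calcium pump of fast fibres, stood at 0.268, 0.0782 and 0.226 CPM in proximal and 0.256, 102 and 145 CPM in distal libraries, where distal 1 fell inside the proximal range. Mb, the oxygen store myoglobin, stood at 0.0768, 98.9 and 119 CPM in distal libraries and at no more than 0.0261 CPM in a proximal one.

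The whole list behaved so. Of its 26 members, 25 reached 1 CPM in distal 2 and 26 in distal 3, against 5 in distal 1 and 4, 5 and 4 in the proximal libraries. The summed level was 15.2, 14.2 and 11.8 CPM in proximal and 17, 1260 and 1560 CPM in distal libraries. Slow and fast fibre genes were both present: Myh7, the slow myosin heavy chain, at 28.8 and 23.1 CPM in distal 2 and 3, and Myh2 and Myh1, fast ones, at 96.2 and 112 and at 90.4 and 104 CPM. Myh4, the heavy chain of the fastest fibres, stood at 1.29 CPM in distal 2 and 16.9 CPM in distal 3. Myosin heavy chain genes are close copies, and their split is uncertain. Only 13 members passed the filter on low counts, so no summary over them is drawn. DESeq2 called 19 members higher, against 0.872% of its genes. The 19 include members that edgeR did not test, such as Ckm and Mb, and members whose sites overlapped, such as Atp2a1 and Ryr1. Of 26 members, 10 separated the sites with distal higher, against 3.88% of all tested genes. The count of 19 therefore describes distal 2 and 3, where the members are high.

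Leaving out distal 1 brought out the muscle genes. With distal 2 and distal 3 alone against the proximal libraries, edgeR called 74 of 17874 genes (0.414%), all higher, of which 20 were in the muscle list. Of the 74, 42 were not tested with all 6 libraries, 10 of the 20 muscle genes among them. These passed the filter on low counts through distal 2 and 3, where they are high, so the count is a description. Acta1 and Mylpf, which were tested with all 6 libraries too, had the lowest edgeR adjusted p of this fit, 0.000217. Their log2 fold changes were 8.97 and 4.30. Mb, Myh7 and the titin cap gene Tcap were among those not tested with all 6. Their log2 fold changes of 12.36, 9.79 and 9.58 are likewise a description. In distal 1, 67 of the 74 were more than 4 times lower than in both other distal libraries, and 50 were at or below the highest proximal library. A single library therefore sets whether edgeR calls any gene at all in this comparison. By the rule for single-library genes applied to distal 2 and 3 together, 39 genes were high in both, 18 of them in the muscle list. Among the others Des, Hspb7 and Cox6a2 also belong to striated muscle, though Des is in the smooth muscle list too. The others also held the blood genes Hbb-bs, S100a8, S100a9 and Retnlg. Cardiac muscle genes summed to 4.12, 11.6 and 19.2 CPM in distal and 4.04 to 4.90 CPM in proximal libraries. The highest member in distal 2 and 3 was Sln (6.78 and 7.35 CPM), followed in distal 3 by Actc1 (4.64 CPM). Myh6 and Mybpc3 did not pass 0.122 CPM in any library.

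The 250 bases upstream of Acta1 and of Ckm, the muscle creatine kinase gene, are given because both hold the letters searched and shared a pattern. Both genes were low in distal 1 and the proximal libraries and high in distal 2 and 3. Capitals mark the E-box letters CAGCTG, which read the same on both strands. They were found in 10 of the 21 muscle members with an entry (47.6%) and in 14.7% of 27025 genes. Ckm stood at 0.154, 50.2 and 84.4 CPM in distal 1, 2 and 3.
Acta1, minus strand, chr8:123894776-123895025: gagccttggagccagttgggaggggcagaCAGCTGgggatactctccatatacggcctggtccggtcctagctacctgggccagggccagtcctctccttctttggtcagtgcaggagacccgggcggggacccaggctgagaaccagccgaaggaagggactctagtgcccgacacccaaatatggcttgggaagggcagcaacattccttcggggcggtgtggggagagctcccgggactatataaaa
Ckm, plus strand, chr7:19410844-19411093: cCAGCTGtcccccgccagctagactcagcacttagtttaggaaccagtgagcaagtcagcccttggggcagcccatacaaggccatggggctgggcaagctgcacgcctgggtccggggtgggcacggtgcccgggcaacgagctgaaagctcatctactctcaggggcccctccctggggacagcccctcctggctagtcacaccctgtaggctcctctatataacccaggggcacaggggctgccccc

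Steroid hormone genes of the adrenal gland were high in distal 3. Cyp11a1, the side-chain cleavage enzyme that opens steroid synthesis, stood at 430 CPM there and at 0.151 to 0.268 CPM in the other 5. Cyp11b1 (556 CPM), Cyp21a1 (671 CPM) and Hsd3b1 (502 CPM), later enzymes of corticosteroid synthesis, did not pass 0.23 CPM elsewhere. Cyp11b2, the aldosterone synthase gene of the outer cortex, was at 16.1 CPM in distal 3 and at 0 in the others. Mc2r, the corticotropin receptor, and Nr5a1, the master regulator of steroid-producing cells, stood at 32.5 and 46.9 CPM, against at most 0.234 and 0.0512 CPM. The electron carriers Fdx1 and Fdxr, expressed in all tissues, stood at 130 and 99.1 CPM in distal 3 and at 13.6 to 20 CPM in the rest. All 10 members of the list reached 1 CPM in distal 3 and 2 of 10 in each other library.

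Genes of the adrenal medulla came with them. Chga and Chgb, granins of catecholamine granules, stood at 139 and 138 CPM in distal 3 and at 0.99 CPM or less elsewhere. The catecholamine enzyme genes Th, Dbh and Pnmt stood at 31.3, 26.9 and 19.4 CPM, and none passed 0.15 CPM in another library. Insm1, a factor of neuroendocrine tumour cells, was at 0.446 CPM in distal 3. Uchl1, a neuronal ubiquitin hydrolase gene, stood at 14.5 CPM there and at 2.81 to 4.28 CPM in the rest. Outside these lists, and named after their values were seen, Star, the cholesterol carrier of steroid cells (919 CPM against at most 4.8), and Scarb1, the lipoprotein receptor (504 against at most 50.3), were high in distal 3. Ucp1, the heat-producing protein of brown fat, stood at 35.2 CPM there against at most 0.156 CPM. These genes rest on 1 library, so no test between sites bears on them.

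**Figure D4:**
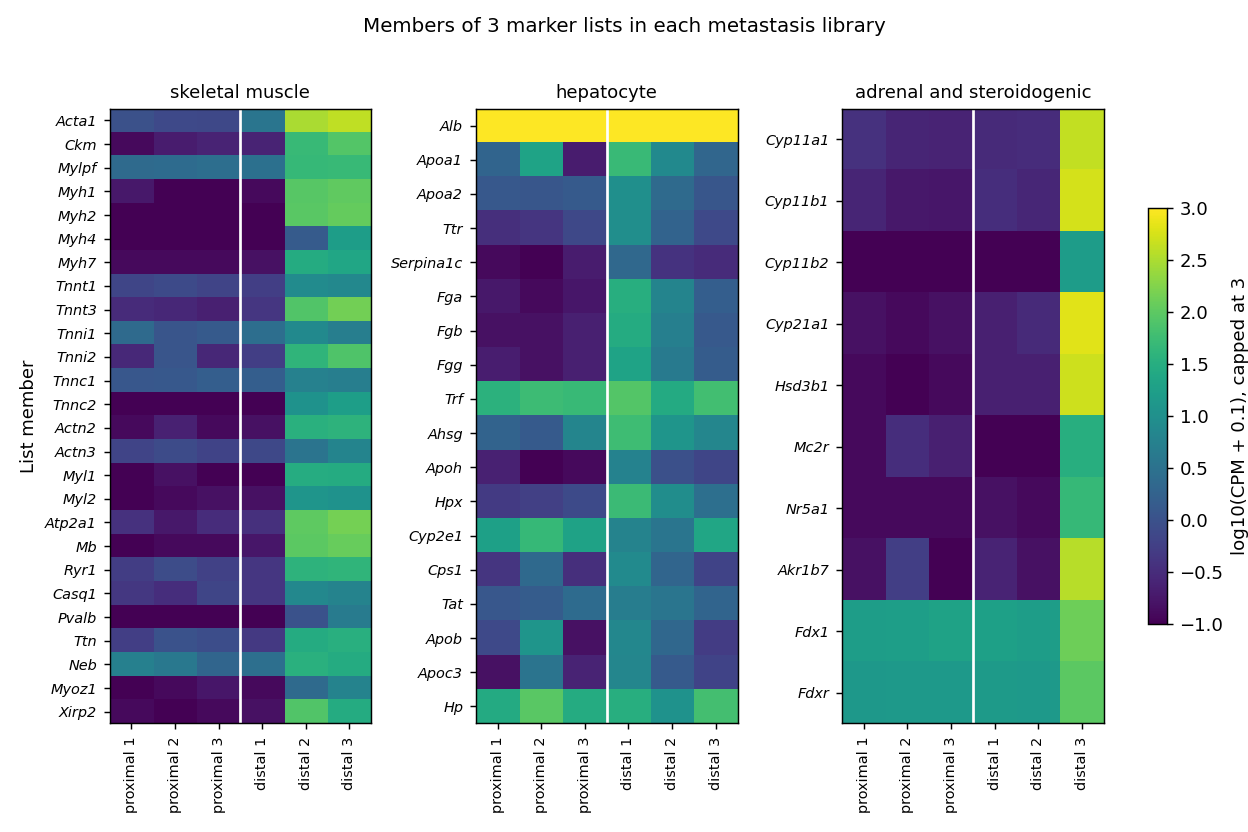
Level of every member (rows) of the skeletal muscle, hepatocyte and adrenal lists in each library (columns), as log10 of CPM plus 0.1 with colours capped at 3. The white line parts proximal from distal libraries. Muscle members are bright in distal 2 and distal 3, the fibrinogen genes and Hpx among hepatocyte members in distal 1, and adrenal members in distal 3.

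The window upstream of Cyp11a1 is printed because the enzyme opens steroid synthesis and its transcript was seen in distal 3. Capitals mark the Nr5a1 half-site letters AGGTCA, searched on both strands. They were found in 2 of the 5 adrenal members with an entry (40%) and in 15.8% of 27025 genes. Cyp11a1 has 2 entries, and 1 holds the letters.
Cyp11a1, plus strand, chr9:58014702-58014951: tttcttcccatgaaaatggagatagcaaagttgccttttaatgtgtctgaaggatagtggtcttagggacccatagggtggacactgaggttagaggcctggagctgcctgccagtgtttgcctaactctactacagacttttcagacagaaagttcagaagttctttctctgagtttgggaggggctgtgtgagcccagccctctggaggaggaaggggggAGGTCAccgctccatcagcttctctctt

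Blood genes ran from distal 1 up to distal 3. Hbb-bs, an adult beta globin gene, stood at 124, 146 and 191 CPM in proximal and 285, 1230 and 4200 CPM in distal libraries (log2 fold change 3.63, edgeR adjusted p = 0.999, DESeq2 adjusted p = 0.0112). Hba-a1, an alpha globin gene with a near-identical copy in Hba-a2, stood at 8.89, 7.50 and 8.57 against 15.3, 43.7 and 191 CPM. Hbb-bt, the other adult beta globin, stood at 27.7, 32.1 and 39.7 against 65.7, 206 and 784 CPM. Alas2, the red cell enzyme of haem synthesis, stood at 32.5, 35.5 and 47 CPM against 54.2, 184 and 588 CPM. The sites did not overlap for these genes, and 7 of 11 list members separated them with distal higher, against 3.88% of all tested genes. Klf1, the nuclear regulator of red cell precursors, overlapped at 0.723, 0.495 and 0.402 against 0.486, 0.559 and 0.618 CPM.

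The summed platelet and neutrophil lists kept the same order, though not every member did. The platelet and megakaryocyte list summed to 8.97, 12.1 and 9.27 CPM in proximal and 15, 33.4 and 150 CPM in distal libraries, and Itga2b, a fibrinogen receptor subunit, stood at 2.25, 3.96 and 2.81 against 4.07, 10.4 and 45.1 CPM. Gp1ba, a platelet adhesion receptor subunit, overlapped at 2.28, 1.56 and 2.11 against 1.87, 2.26 and 4.53 CPM. Pf4, a platelet chemokine, stood at 2.57, 4.27 and 2.11 against 4.81, 5.5 and 27.9 CPM. S100a9, the calprotectin subunit of neutrophils, stood at 3.05, 6.17 and 5.22 against 12.3, 51.8 and 255 CPM (DESeq2 adjusted p = 0.00958). Lcn2, which epithelium makes as well as neutrophils, overlapped at 40.3, 27.9 and 130 against 141, 61.4 and 218 CPM only through proximal 3 and distal 2. Of 15 neutrophil members, 8 separated the sites with distal higher, against 3.88% of all tested genes. DESeq2 called 7 higher, against 0.872% of its genes. Mmp9, at 8.89, 44.6 and 14.5 against 10.9, 16 and 21.2 CPM, did not separate the sites. Without distal 3, the log2 fold changes were 2.30 for Hbb-bs and 2.73 for S100a9.

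**Figure D5:**
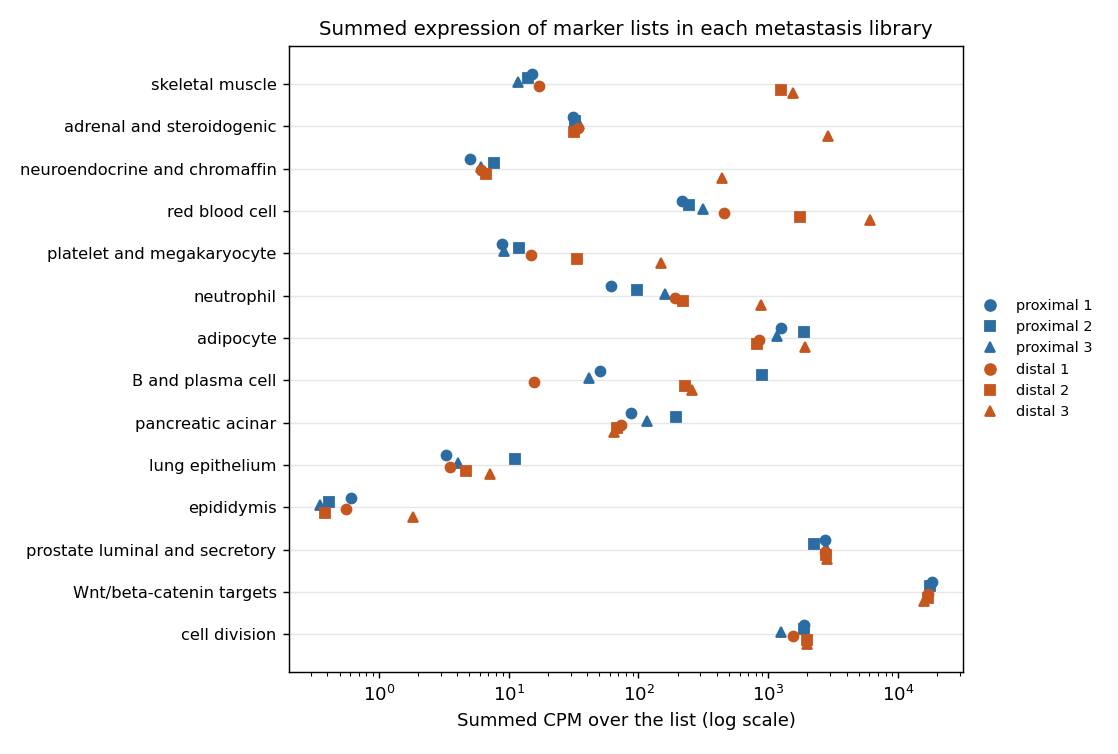
Summed CPM (log scale, horizontal axis) of 14 gene lists (rows) in each of the 6 libraries, proximal in blue and distal in orange, with a marker shape per library number. Muscle, adrenal and blood lists spread over a wide range between distal libraries, whereas Wnt targets, cell division and luminal genes lie close together in all 6.

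Proximal metastases carried marker transcripts of their own site unevenly. Adipoq, the fat cell hormone adiponectin, stood at 5.81, 28.2 and 11.2 CPM in proximal and at 0.077, 0.097 and 18.7 CPM in distal libraries. Distal 3 was thus as high as the epididymal fat samples, while distal 1 and 2 were near 0 (log2 fold change -1.28, SE 1.71, edgeR adjusted p = 0.999). Without distal 3 the change was -7.38, still not called. The same split held for Cfd, the adipsin gene, at 61.8, 273 and 106 against 0.461, 1.63 and 171 CPM, and for Retn, at 3, 14.1 and 5.38 against 0.0256, 0.0243 and 12.9 CPM. Car3 and Fabp4, also fat cell genes, kept 8.29 and 14.7 CPM or more in every library. Of the lung epithelium genes, the surfactant genes Sftpc, Sftpb, Sftpa1 and Sftpd did not pass 0.104 CPM in any of the 6 libraries. Napsa stood at 1.12 to 5.22 CPM and Ager at 1.41 to 2.81 CPM over the 6, and Cldn18, also a stomach gene, at 2.74 CPM in proximal 2 and 0 elsewhere. The whole list summed to 3.27, 11.2 and 4.09 CPM in proximal and 3.51, 4.72 and 7.14 CPM in distal libraries. Crisp1 and the other epididymis genes summed to 0.352 to 1.82 CPM. The mesothelial gene Msln stood at 73.9, 219 and 147 against 137, 129 and 194 CPM.

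Pancreatic and lymphoid genes followed proximal 2. Ctrb1, a chymotrypsinogen gene, stood at 3.13, 39.9 and 0.603 CPM in proximal and at 0.0512, 0.0486 and 0.103 CPM in distal libraries (log2 fold change -7.74, edgeR adjusted p = 0.999, DESeq2 adjusted p = 0.000389). Without proximal 2 the change was -4.78, not called by edgeR. Cpa1, Cpb1, Prss2, Pnlip and Cela2a, other digestive enzyme genes, stood between 10.7 and 17 CPM in proximal 2 and at most at 1.42 CPM in any other library. Cela1, named for a pancreatic enzyme but expressed in many tissues, overlapped between sites, at 77.2, 70.5 and 114 against 73.4, 67.6 and 64.2 CPM. Of 10 members, 6 separated the sites with distal lower, against 3.45% of all tested genes. Of the 6, edgeR tested only Ctrb1 and Pnlip. Cela2a, Cela3b, Cpa1 and Prss2 did not pass the filter on low counts, and held 2 to 9 counts in proximal 3. DESeq2 called 7 lower, against 0.137% of its genes. Gastric genes named after their values were seen went with them in proximal 2: Gkn1 (137 CPM against at most 0.294), Tff1 (85.5 against 0.214) and Tff2 (25.9 against 0.161).

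The B and plasma cell list summed to 50.4, 894 and 41.4 CPM in proximal and 15.6, 228 and 257 CPM in distal libraries. Igkc, the kappa light chain constant gene, stood at 12, 321 and 10.5 against 4.71, 68.1 and 69.1 CPM, and its log2 fold change was -1.27 with all libraries and 2.07 without proximal 2. Ighm, the heavy chain of IgM, stood at 17.7, 177 and 20.5 against 4.07, 113 and 140 CPM. Pax5, which defines B cells, stood at 4.35 CPM in proximal 2 and at 0.962 CPM or less elsewhere. Among T cell genes, Lck stood at 1.26, 4.45 and 0.879 CPM in proximal libraries and at 1.25 CPM or less in the distal ones, with proximal 2 again apart. Ccl5, a T cell chemokine, stood at 0.535, 3.62 and 0.377 CPM in proximal and at 0.435 to 1.65 CPM in distal libraries. Class II antigen presentation had 12 of 12 members with a negative fold change (median -0.73), and Cd74, the invariant chain gene, stood at 95.8, 195 and 63.8 against 35.1, 101 and 76.1 CPM. H2-Aa, a class II alpha chain gene, stood at 33, 63.9 and 19.5 against 11.2, 34.9 and 24.3 CPM. Without proximal 2 the log2 fold change of Cd74 was -0.18 in place of -0.74. None of these members was called.

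Interferon response genes were mostly at positive fold changes, with the highest values often in distal 3. Of 24 members 22 had a positive fold change, against 47.5% of all genes, with a median of 0.84. With distal higher, 5 separated the sites, against 3.88% of all tested genes, and none was called. Rsad2, the antiviral enzyme viperin, stood at 3.85, 3.88 and 4.30 CPM in proximal and 8.68, 8.17 and 54.3 CPM in distal libraries. Isg15, a ubiquitin-like modifier, stood at 3.67, 3.78 and 4.02 against 7.78, 5.52 and 20 CPM, and Ifit1 at 9.77, 8.21 and 10.8 against 20.9, 7.03 and 34 CPM, where distal 2 was the lowest of all 6. The most abundant members by CPM, Ifitm3 and Usp18, overlapped: 540, 510 and 730 against 682, 658 and 609 CPM, and 108, 88.6 and 174 against 145, 130 and 111 CPM. Neutrophil genes were highest in distal 3 too, and their part in this result was not tested.

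DESeq2, the tool named in the submitters' processing notes, called 184 genes on the same 6 libraries. The sites did not overlap for 135 of them, 114 higher and 21 lower. Over all genes tested by edgeR, which held 116 of the 184, 3.88% lay higher and 3.45% lower without overlap. Because the calls were picked for a difference between these same libraries, these shares are no test of the calls. Distal 3 held the highest value for 105, distal 1 for 35, proximal 2 for 20 and distal 2 for 19. Only 7 of the 159 higher calls reached 10 CPM in every proximal library, and 53 of all calls were members of a gene list. In the 6 fits that each left out 1 library, 39 calls were kept throughout. They included Cd244a, Gpr22, Parm1, H2-Q1 and Nkx2-3, the liver genes Fga, Fgb, Fgg, Gc, Hpx and Serpina1e, and the muscle genes Acta1, Ckm, Mb, Atp2a1 and Tnnt3. Slc38a3, a glutamine transporter gene (0.937, 0.677 and 1.16 against 4.40, 3.31 and 3.02 CPM), and Tbx20, a cardiac transcription factor gene (0.857, 0.834 and 1 against 1.97, 3.50 and 3.50 CPM), named after their values were seen, were among them too.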

How the data were processed

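Total RNA from 6 metastases (3 proximal, 3 distal) was analysed, with 3 primary tumours as an alternative. Each deposited file held the authors' raw read counts, whole numbers for 47069 Ensembl genes. Per the submitters' processing notes, software comprised DESeq2 1.14.1, R 3.2.3, HTSeq 0.6.0, FastQC 0.11.4, Bowtie2 2.2.6.0 and TopHat2 2.1.0, with build GRCm38.p3. The strand setting, like the annotation release and filters, is not given in the sources used here, so counts of overlapping genes and near-identical copies are uncertain. Symbols matched 46488 identifiers, and positions come from GENCODE on GRCm38. One further engineered allele and some genes are not reported here.

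Groups follow the tissue labels, and library numbers only name libraries. P-values treat the libraries as independent. No pair of libraries agreed within sampling noise (lowest chi-square per gene 23.0).

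Genes passing filterByExpr (minimum count 10, minimum total 15) were tested with edgeR 4.0.16's robust quasi-likelihood F-test in R 4.3.3, with TMM scaling, 4 residual degrees of freedom and a median prior of 2.46. Calls required a Benjamini-Hochberg adjusted p below 0.05. A total of 29829 genes were not tested. SE was taken as the size of the log2 fold change over the root of F. CPM was computed from the counts with TMM-scaled totals. Alternatives were DESeq2 1.42.0, limma-voom 3.58.1, other scalings and filters, all 9 libraries, a minimum fold change (1 on the log2 scale), fits without abundant or site tissue genes, and leaving out each library. Upstream windows are RefSeq's, and motifs were chosen after the data were seen.

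Of 48 gene lists, 12 met the rule for description: at least 2 members called, or 3 in 4 tested members on 1 side with a median past 0.5 in size (log2). Of the other 36, some are given as sums or counts beside a result. Named genes were, per direction, up to 12 called genes by fold change, filled to 6 by lowest p among genes at 10 CPM or more in the higher group without overlap, excluding predicted or clone-based names and receptor segments. A panel and the 2 most abundant members of each described list were added. Other list members given as examples were chosen after their values were seen. Counts of list members that separated the sites cover all members in the data, tested or not. The shares over all genes beside them cover tested genes only. Comparison, members and lists were chosen with earlier results of these data known.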

Additional observations from a re-analysis of the deposited data

How the results depend on the processing

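No paired analysis was possible because the labels do not say which libraries share an animal. EdgeR called 0 genes under the other scalings and filters, with all 9 libraries, without robust shrinkage, with a minimum log2 fold change of 1, without abundant or site tissue genes, and with limma-voom, and DESeq2 called 184. Leaving out each library in turn, edgeR called 0 to 74 genes, the 74 without distal 1. DESeq2 then called 93 (without proximal 2) to 355 (without distal 1), with 112 without proximal 1, 208 without proximal 3, 234 without distal 2 and 116 without distal 3. The calls split into 69 higher and 43 lower without proximal 1, 82 and 11 without proximal 2, 131 and 77 without proximal 3, 320 and 35 without distal 1, 203 and 31 without distal 2, and 88 and 28 without distal 3. Without both proximal 2 and distal 3, a choice made after the data were seen, DESeq2 called 107 genes, 84 higher and 23 lower, and edgeR 0 (572 at an unadjusted p below 0.05). Also added then were voom with sample quality weights and edgeR's newer deviance, both with 0 calls. Scaling moved the median of all genes by at most 0.02. Of 52 genes followed through the alternatives, 18 turned in sign without 1 library. Among them, Ctnnb1 was 0.02 without proximal 3, Krt8 -0.12 without proximal 2, Cdh1 0.19 without proximal 3, Fdx1 -0.05 and Chgb -1 without distal 3, and Igkc 2.07 and Ccl5 1.22 without proximal 2. At 29.1 to 40.4 counts per CPM, levels under 0.1 CPM rest on fewer than 5 counts.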

Other observations

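Immediate early and stress genes, which answer to handling as well as to signals in tissue, had 19 of 20 members with a positive fold change (median 0.35). EdgeR called none, and DESeq2 called 1 higher, against 0.872% of its genes. This was Klf2, at 28.2, 27.3 and 27.7 against 37.6, 32.8 and 36.4 CPM. Fos stood at 9.99, 11.4 and 9.95 CPM in proximal and 12.2, 8.24 and 27.3 CPM in distal libraries, and Nr4a1 at 4.87, 6.56 and 6.63 against 5.40, 5.57 and 43.2 CPM. Distal 3, which also held the adrenal genes, was the highest of the 6 for both, and distal 2 lay among the proximal values or below them. The part of that tissue in the Fos and Nr4a1 levels was not tested. Ier2 separated the sites at 51.3, 52.7 and 56.2 against 60.7, 62.0 and 62.4 CPM (log2 fold change 0.21, SE 0.06).

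Cxcl2, a neutrophil chemokine gene, stood at 0.428, 0.365 and 1.51 against 1.69, 2.58 and 16.6 CPM, with no overlap between sites. Among paternally or maternally expressed growth genes, Dlk1 and Peg10 stood at 26.5 and 17.3 CPM in distal 3 and at 0.98 CPM or less elsewhere. Distal 3 was also the library with the adrenal genes, and whether Dlk1 and Peg10 came with that tissue was not tested. Cd163, a scavenger receptor of resident macrophages, stood at 10.5, 15.7 and 7.18 CPM against 3.51, 3.57 and 7.69 CPM (log2 fold change -1.18, SE 0.42), and overlapped between sites, as did Marco and Lyz2. Mertk, a receptor for dying cells, separated them at 21.3, 23.7 and 23.5 against 17.9, 19.5 and 19.1 CPM (log2 fold change -0.28, SE 0.08). Lars2 varied within both sites, at 2070, 1640 and 388 CPM in proximal and 792, 1810 and 391 CPM in distal libraries. Genes in these paragraphs were chosen after their values were seen.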
